A study of Zea mays with 4 samples.

Results

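The sites described here are the ZmbZIP22 ChIP-seq peaks of maize chromosomes 3, 4, 8, 9 and 10 that appear in both replicate lists. A peak was a member when its summit, the position of highest signal, lay within 500 bp of a summit of the other replicate's list on the same chromosome. Peaks that met this are called partnered below, and peaks that did not are called lone. The chromosomes were chosen by their low counts of partnered peaks and the members were selected on summit distance, so low counts and close summits are a description and not a result. There were 272 members in the replicate 1 list of 1961 peaks and 272 in the replicate 2 list of 1791 peaks. They made up 17.5% of the 1550 partnered peaks of each list.

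ChIP-seq recovers DNA fragments bound by a chosen protein and maps them to the genome. Chromatin came from wildtype endosperm of maize (Zea mays) kernels at 15 days after pollination and was precipitated with an antibody made by the submitters against ZmbZIP22 (2 libraries) or with IgG, a nonspecific antibody control (2 libraries). No genotype lacking ZmbZIP22 was among these samples, and the labels do not say how many plants or kernels went into a library or whether the replicates were separate plants. The IgG libraries had no values of their own here.

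Basic leucine zipper (bZIP) proteins bind DNA as dimers, with a basic region that contacts the DNA and a zipper of leucines that holds the dimer together, and many plant members recognise sites with an ACGT core. In cereal endosperm, bZIP factors such as Opaque2 are known for switching on storage protein genes during grain filling. ZmbZIP22 is known for acting on a gamma-zein gene, zeins being the main storage proteins of the maize kernel. In maize chromosomes, genes lie more densely toward the ends of the arms, and the wide middle around the centromere is rich in repeats. The genome build of the peak positions is not given in the sources used here, so peaks are named by position and no gene, annotation or sequence is attached to them. Whether positions count from 0 or 1 was not settled. The library depths are unknown here.

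The partnered peaks were sparse on all 5 chromosomes. Chromosomes 3, 4, 8, 9 and 10 held 67, 52, 40, 48 and 65 partnered peaks in each of the lists, with the same number in both. Per 10 Mb, this was 2.17 on chromosome 4 (exact 95% Poisson interval 1.62 to 2.84) and 2.28 on chromosome 8 (1.63 to 3.11). It was 2.90 on chromosome 3 (2.25 to 3.68) and 3.11 on chromosome 9 (2.29 to 4.13). Chromosome 10 was the fullest of the 5, with 4.35 per 10 Mb (3.36 to 5.54). The interval of chromosome 10 did not overlap those of chromosomes 4 and 8, and the intervals of chromosomes 3, 4, 8 and 9 all overlapped. These intervals cover counting error only and treat peaks as independent, although the peaks were grouped along the chromosomes. The density was taken over the span of a chromosome up to the last peak end of either list, since its true length was not known.

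The other 5 chromosomes held between 6.78 (chromosome 5) and 18.4 (chromosome 1) partnered peaks per 10 Mb. The chromosomes described here took up 46.4% of the combined span. The lone peaks did not follow this split as far, but the partnered and lone peaks did not cover the same range of enrichment. All lone peaks of both lists stood at 25.02-fold or more over the local background. Partnered peaks went down to 1.23-fold in replicate 1 and 1.49-fold in replicate 2. Taken over both lists, the lone peaks ran from 2.74 per 10 Mb on chromosome 10 to 3.11 on chromosome 9 within the group. They numbered 2.92 per 10 Mb over all 5 chromosomes against 3.41 over the other 5. In replicate 1 alone, chromosome 8 was lowest in lone peaks with 1.598 per 10 Mb, next to 1.69 on chromosome 3 and 1.81 on chromosome 10, and in replicate 2 chromosome 10 was lowest with 0.94. There were 65 partnered peaks per list for 41 lone peaks on chromosome 10, 52 for 71 on chromosome 4, 40 for 49 on chromosome 8, 67 for 68 on chromosome 3, and 48 for 48 on chromosome 9. Partnered peaks were 53.1% of the replicate 1 list on chromosome 4 and 70.7% on chromosome 10. In the replicate 2 list they were 65.6% on chromosome 8 and 82.3% on chromosome 10, the ends of the range over the 5 chromosomes. Whether the lists had been filtered on closeness or on enrichment before deposit was not established, so these densities, shares and ratios describe the lists as deposited.

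**Figure D1:**
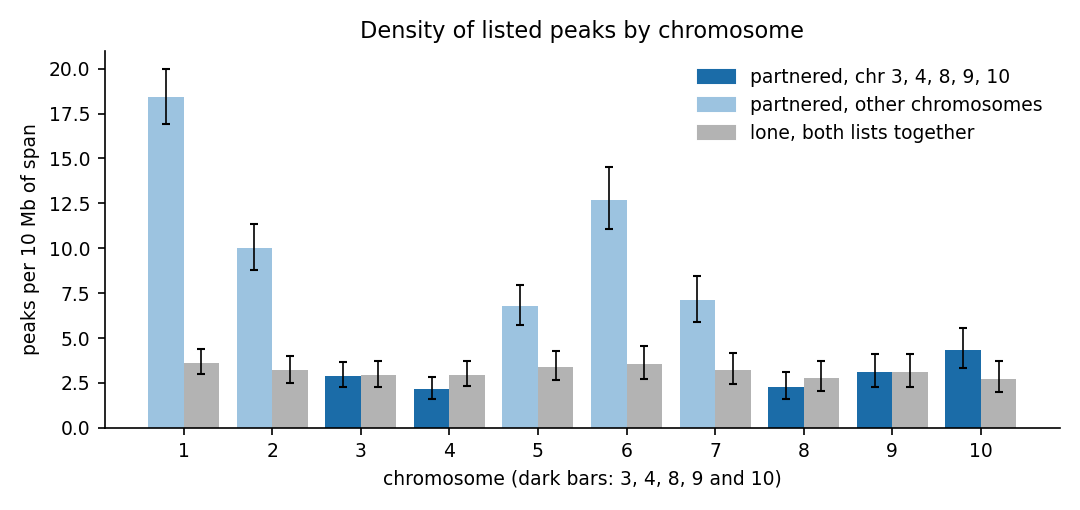
Peaks per 10 Mb of span (vertical axis) on each of the 10 chromosomes, with blue bars for partnered peaks of one list (dark on chromosomes 3, 4, 8, 9 and 10) and grey bars for lone peaks of both lists together. Error bars are exact 95% Poisson intervals; the dark bars stand between 2.17 and 4.35, all below the pale bars, while the grey bars stay between 2.74 and 3.62.

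The members lay both toward the ends and in the middle of these chromosomes, with chromosome 4 lowest in its share toward the ends. Of all members, 147 of 272 in each list (54.0%, exact 95% binomial interval 47.9% to 60.1%, counting error only) had their summit in the outer 25% of the span at either end, a part that makes up 50% of the span. The share was 61.5% on chromosome 10 (48.6% to 73.3%), 60.4% on chromosome 9 (45.3% to 74.2%), 57.5% on chromosome 8 (40.9% to 73.0%), 52.2% on chromosome 3 (39.7% to 64.6%) and 38.5% on chromosome 4 (25.3% to 53.0%). All of these intervals overlap one another and include 50%. The members of the other 5 chromosomes together had 53.0% there. The lone peaks of the same 5 chromosomes had 67.1% in replicate 1 and 60.6% in replicate 2.

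By count of members, the outermost parts held more than their share of the span. The outer 10% at either end, 20% of the span together, held 87 of the 272 members, or 31.99%, with 40.0% and 39.6% on chromosomes 8 and 9, 30.8% and 29.9% on chromosomes 10 and 3, and 23.1% on chromosome 4. The share over the other 5 chromosomes was 26.4%. The lone peaks of the same 5 chromosomes had 26.0% in replicate 1 and 28.8% in replicate 2. Groups of members less than 1 Mb apart weighed on the shares of chromosomes 8 and 9. On chromosome 8, groups of 7 and 3 pairs lay in the first 10%, and on chromosome 9 groups of 9 and 4 pairs lay in the last 10%. No interval or count by groups was computed for these parts. The median distance from a member to the nearer end of the span was 17.6 Mb on chromosome 9, 28.3 Mb on chromosome 8, 33.7 Mb on chromosome 10, 55.4 Mb on chromosome 3 and 67.6 Mb on chromosome 4, chromosomes of unequal span (149.4 Mb to 240.0 Mb). Since a span ends at the last peak, distances to the right end are lower bounds.

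The first and second 50% of the span were unequally filled, and by members chromosome 8 went the other way from the rest. On chromosome 8, 28 of 40 members (70%) lay in the first 50% of the span. On chromosomes 3, 4, 9 and 10, by contrast, 65.7%, 67.3%, 72.9% and 67.7% lay in the second 50%. Of the chromosome 8 pairs in the first 50%, 15 lay in 2 tight groups described below, of 8 pairs in 87.4 kb and 7 in 180.3 kb. With members less than 1 Mb apart counted once, 11 of its 20 groups lay in the first 50%. Counted in this way, 31 of 48, 19 of 31, 14 of 25 and 24 of 37 groups of chromosomes 3, 4, 9 and 10 lay in the second 50%. The lone peaks of chromosome 8 did not share this side, since only 21.4% of those in replicate 1 and 38.1% of those in replicate 2 lay in its first 50%. In steps of 10% of the span, the fullest parts were 70% to 80% on chromosome 3 (15 of 67) and on chromosome 10 (17 of 65), 60% to 70% on chromosome 4 (15 of 52), the first 10% on chromosome 8 (12 of 40) and the last 10% on chromosome 9 (16 of 48). The part from 10% to 20% of chromosome 9 held 0 members.

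**Figure D2:**
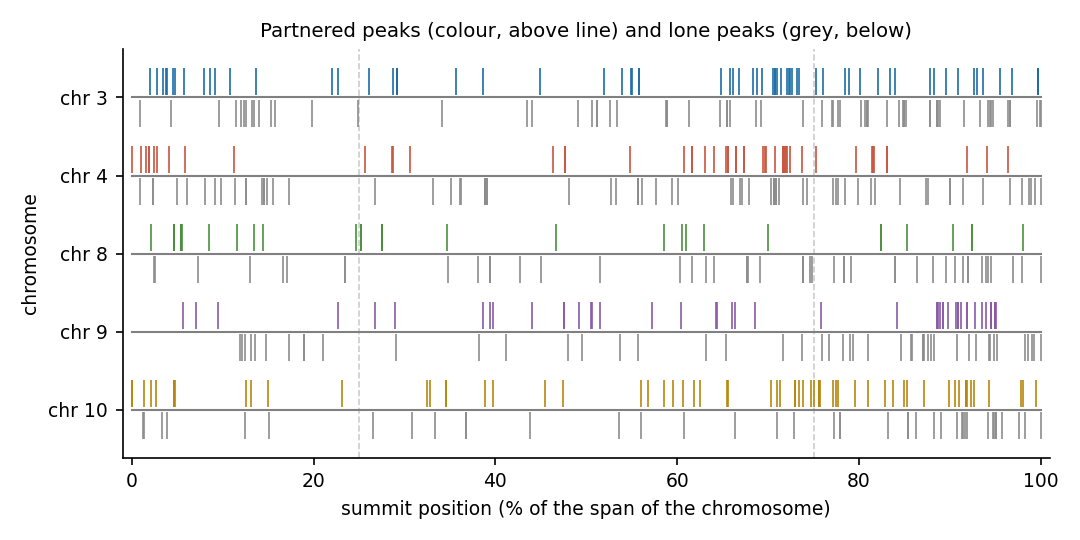
Position of each summit as a percent of the span of its chromosome (horizontal axis), with partnered peaks of replicate 1 as coloured strokes above the line and lone peaks of both lists as grey strokes below; dashed lines mark 25% and 75%. Chromosome 8 has 28 of its 40 partnered peaks in the first 50% of the span, and chromosome 9 has 16 of 48 in its last 10%.

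Spacing was wide and uneven. Successive members of a list lay a median of 1.38 Mb apart (quartiles 0.33 and 3.83 Mb, 267 intervals), against a median of 0.24 Mb on the other 5 chromosomes. The 5 chromosomes were chosen for few partnered peaks, so this wider spacing was set by the choice and is a description. The median was 2.15 Mb on chromosome 4, 1.56 Mb on chromosome 3, 1.201 Mb on chromosome 10, 1.01 Mb on chromosome 9 and 0.95 Mb on chromosome 8. Chromosome 8, second from last in density, therefore had the shortest typical step. Its median step was 0.22 of its mean step of 4.31 Mb, whereas on chromosome 10 the median was 0.52 of a mean of 2.32 Mb. For the lone peaks of chromosome 8 the ratio was 0.45 in replicate 1 and 0.60 in replicate 2. Steps under 10 kb numbered 11 of 39 on chromosome 8, and 3 of 66, 4 of 51, 4 of 47 and 3 of 64 on chromosomes 3, 4, 9 and 10. On chromosomes 4, 8, 9 and 10 they include steps between summits of a single replicate 1 interval. Replicate 1 and replicate 2 gave the same counts of steps at this limit.

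Members less than 1 Mb apart were joined into groups, over the 269 pairs of mutually nearest summits. This gave 161 groups, of which 109 were single pairs and 22 held at least 3 pairs. The groups of 3 or more held 100 of the 269 pairs, from 26.9% of the pairs of chromosome 3 to 53.8% of those of chromosome 8. Counted as groups, chromosome 8 was the emptiest with 1.14 per 10 Mb, next to 1.29 on chromosome 4, and chromosome 10 was still the fullest with 2.48. In windows of 10 Mb, 21 of 97 windows held 0 members of replicate 1, against 7 of 112 on the other 5 chromosomes. This contrast, too, follows from the choice of chromosomes with few partnered peaks. Chromosome 4 had 9 empty windows of 24 and chromosome 10 had 0 of 15.

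Length was short and similar over the 5 chromosomes. In replicate 1 the median length ran from 289 bp on chromosome 9 to 318 bp on chromosome 10, with 302.5 bp over all members (quartiles 271.8 and 363.5). In replicate 2 it ran from 338 bp on chromosome 8 to 379 bp on chromosome 3, with 364.5 bp over all members (quartiles 308.8 and 456.2). The range of medians was narrower than the spread between the quartiles of any one chromosome. The shortest members measured 256 bp (replicate 1) and 265 bp (replicate 2), the shortest lengths of those lists, and 31 members of replicate 1 and 14 of replicate 2 had exactly these. The longest was a replicate 1 peak of 896 bp on chromosome 8.

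Pileup, the height of the stacked fragments at the summit, was also similar between chromosomes, and it was compared only among the members of a list. The median pileup of replicate 1 was 17.5 on chromosome 4, 21.0 and 21.5 on chromosomes 10 and 8, and 22.8 and 23.6 on chromosomes 3 and 9. In replicate 2 it was 25.5 on chromosome 8, 29 on chromosomes 3 and 4, and 32.5 and 33 on chromosomes 9 and 10. Chromosomes 4 and 10 thus took different places in the order of the lists. The values spread widely within a chromosome, with quartiles of 14.9 and 35.9 over all members of replicate 1 and 20 and 55.2 over those of replicate 2.

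Fold enrichment, the ratio of that height to the local background, was lowest on chromosome 8 in both lists. Its median in replicate 1 was 3.35 on chromosome 8 (quartiles 2.71 and 4.03), 3.65 and 4.01 on chromosomes 4 and 3, and 4.18 and 4.22 on chromosomes 9 and 10. In replicate 2 it was 6.90 on chromosome 8 (quartiles 5.28 and 10.7), 7.51 and 7.53 on chromosomes 4 and 3, and 7.68 and 8.18 on chromosomes 10 and 9. The quartile ranges of the 5 chromosomes overlap in both lists, and with summits within 200 bp the replicate 2 median was lower on chromosome 3 (7.17) than on chromosome 8 (7.24). Over all 272 members the median was 3.90 in replicate 1 and 7.56 in replicate 2, against 4.18 and 7.62 for the partnered peaks of the other 5 chromosomes. Chromosome 8 also had the lowest maximum in both lists, 5.10 in replicate 1 and 25.3 in replicate 2, but it had the fewest members as well, 40 per list. A single tight group of 8 of its pairs, described below, had medians of 2.65 in replicate 1 and 5.17 in replicate 2.

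High values were rare in replicate 1. A fold enrichment of 10 or more was reached by 4 members of replicate 1, of which 3 lay on chromosome 4 and 1 on chromosome 10. It was reached by 100 members of replicate 2, spread as 25, 17, 14, 18 and 26 over chromosomes 3, 4, 8, 9 and 10. At the other end, 59 members of replicate 1 and 2 of replicate 2 were under 3-fold. The q-value, the significance after multiple-testing correction, was above 0.05 for 21 members of replicate 1, 7 each on chromosomes 4 and 10, and for 0 members of replicate 2. The lone peaks of these chromosomes started at 25.4-fold in replicate 1 and 25.03-fold in replicate 2, and 1 member of replicate 1 and 21 of replicate 2 reached 25-fold. Of the 1278 partnered peaks per list on the other 5 chromosomes, 49 in replicate 1 and 465 in replicate 2 reached 10-fold. In the same order, 3 and 80 of them reached 25-fold, 138 and 9 were under 3-fold, and 58 and 0 had a q-value above 0.05. By share over each set as a whole, members of replicate 1 were more often under 3-fold than these peaks, and members of replicate 2 reached 10-fold about as often. The order under 3-fold did not hold for every chromosome. In replicate 1 it was 12 of 40 on chromosome 8 but 10 of 67 on chromosome 3, a lower share than the 39 of 238 on chromosome 2.

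**Figure D3:**
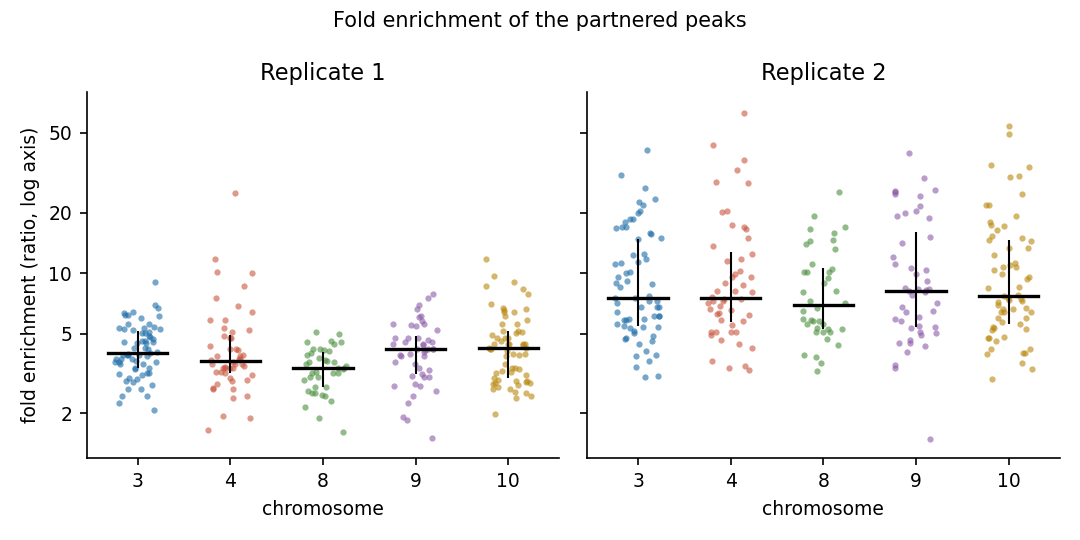
Fold enrichment of each partnered peak (vertical log axis) by chromosome (horizontal axis), in replicate 1 on the left and replicate 2 on the right. Points are peaks, horizontal bars medians and vertical bars quartiles; chromosome 8 has the lowest median in both lists (3.35 and 6.90) and the quartile ranges overlap.

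Members toward the ends had a slightly higher median enrichment than those in the middle over the set, and on chromosomes 3 and 4 the order differed between the lists. Members of replicate 1 had a median of 4.07-fold in the outer parts and 3.75-fold in the inner part. Those of replicate 2 had 8.31-fold and 7.12-fold. On chromosome 10 the outer and inner medians were 4.403 and 3.315 in replicate 1 and 10.1 and 6.60 in replicate 2. On chromosome 3 they were 3.90 and 4.24 in replicate 1 and 7.67 and 7.38 in replicate 2. On chromosome 4 they were 3.602 and 3.68 in replicate 1 and 7.78 and 7.51 in replicate 2. These gaps are smaller than the quartile range of the members of either list, which was 3.11 to 4.88 and 5.41 to 14.2.

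The lists differed in how length, pileup and fold enrichment went together. The members of all 5 chromosomes showed it, and so did the partnered peaks of the other 5. In replicate 2, longer peaks were taller and more enriched. Spearman's rho across the 272 members was 0.81 for length with pileup and 0.82 for pileup with fold enrichment. In replicate 1 the same values were 0.03 and −0.08. For the partnered peaks of the other 5 chromosomes, they were 0.79 and 0.81 in replicate 2 and 0.10 and 0.16 in replicate 1. The rho of pileup with fold enrichment in replicate 1 was not alike on the 5 chromosomes, with −0.48 on chromosome 8, −0.29 on chromosome 9, and 0.02, 0.05 and 0.07 on chromosomes 3, 4 and 10. By chromosome, the rho of length with pileup ranged between −0.12 (chromosome 3) and 0.12 (chromosome 4) in replicate 1, and between 0.76 (chromosome 9) and 0.85 (chromosome 4) in replicate 2. The lone peaks of the same chromosomes had a rho of length with pileup of 0.68 in the replicate 1 list and 0.49 in the replicate 2 list. Peaks of one list are not independent, so these values describe the lists and carry no test. All 173 lone peaks of the replicate 1 list on these chromosomes had whole-number pileups, whereas 0 of its 272 members did. The background implied by pileup and fold enrichment began at 2.17 in those members and at 0.868 in those lone peaks, as it did in the 104 lone peaks of replicate 2. In the 272 members of replicate 2 it began at 1.35. Partnered and lone peaks were therefore not shown to be on 1 scale in either list, and their pileups and enrichments set side by side describe the lists as deposited.

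The tallest members showed the same contrast, although the pileups of the lists were not put on a common scale. A pileup of 100 or more was reached by 22 members of replicate 1, with a median fold enrichment of 2.46 (1.51 to 6.69). It was reached by 25 members of replicate 2, with a median of 29.8 (1.49 to 63.2). The tall members of replicate 1 thus stood on a high local background. The background implied by pileup and fold enrichment, with a pseudocount of 1, reached 220.0 among the members of replicate 1 and had a median of 4.001. In replicate 2 it had a median of 2.92 and was at most 11.74 in all but 1 member, a peak of chromosome 9 described below.

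**Figure D4:**
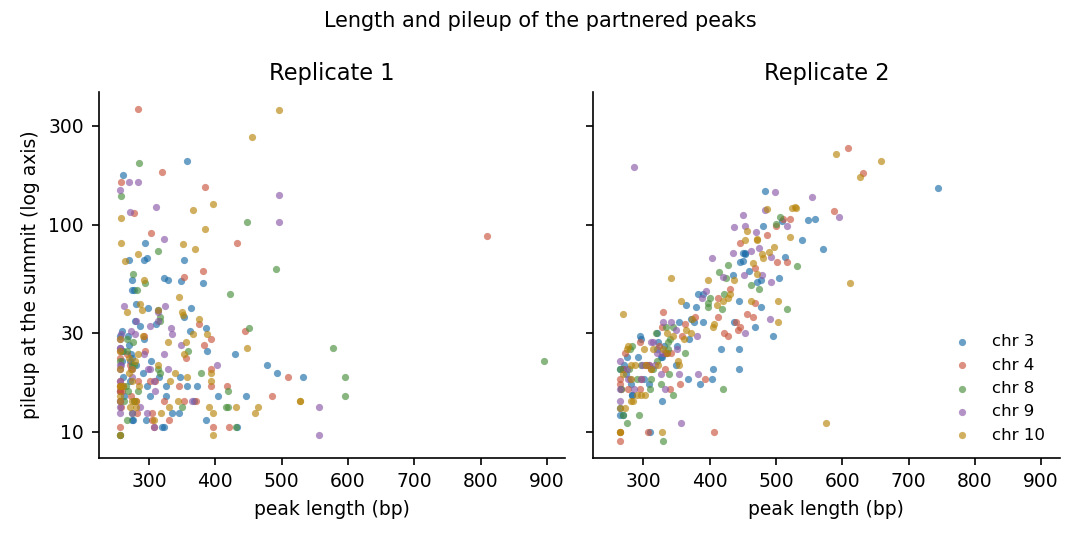
Pileup at the summit (vertical log axis) against peak length in bp (horizontal axis) for the 272 partnered peaks of each list, coloured by chromosome. The points of replicate 2 climb together (rho 0.81), and those of replicate 1 do not (rho 0.03).

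The 5 chromosomes are taken next in turn, by pairs of mutually nearest summits. Positions are those of the replicate 1 interval. On chromosome 3, the pair whose smaller fold enrichment was highest lay at 158001313 to 158001675. Replicate 1 gave it 6.73-fold enrichment and replicate 2 gave it 41.1-fold, with summits 72 bp apart, and the replicate 1 interval lay wholly inside the replicate 2 interval. The second by this rank, at 192800078 to 192800507, had 6.16-fold and 16.9-fold. The tallest replicate 1 peak of the chromosome, at 166470874 to 166471230, had a pileup of 203.2 at 4.25-fold, and its partner a pileup of 29 at 6.10-fold. The tallest replicate 2 peak, opposite the replicate 1 peak at 25074803 to 25075076, had a pileup of 150 at 30.7-fold, while the replicate 1 pileup was 11.4 at 3.90-fold. Height in one list went with a height at or below the chromosome's median in the other in both of these pairs.

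The pair with the lowest smaller value on chromosome 3, at 175734932 to 175735245, had 2.08-fold and 11.1-fold. The closest summits, 5 bp apart, were at 152907781 to 152908036. The farthest of the whole set, 384 bp apart, were at 202899893 to 202900186, and the next, 367 bp apart, belonged to the last pair of chromosome 3 at 230338532 to 230338792, whose intervals did not overlap. These are the members nearest to the 500 bp limit. Outside it, no peak of the 5 chromosomes had a summit of the other list closer than 11139 bp. Chromosome 3 ran from a first pair at 4700107 to 4700538, and its largest empty stretch, 21.0 Mb, lay between 128849168 to 128849443 and 149880530 to 149880855. Groups of 4 pairs lay near 66.5, 163.0 and 166.5 Mb.

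On chromosome 4, several of the strongest replicate 1 members lay near the start. The first pair, at 32236 to 32588, was enriched 11.7-fold in replicate 1 and 8.13-fold in replicate 2, with pileups of 56.0 and 31. The pair at 5974722 to 5975104 had 8.59-fold and 13.6-fold, the highest smaller value of the chromosome. The most enriched replicate 1 member of the whole set, picked out after its values were seen, was at 4448072 to 4448881, with 25.1-fold at a length of 810 bp, and its partner had 5.85-fold. The pair at 6669294 to 6669638 had the closest summits, 16 bp apart, with 3.46-fold and 6.32-fold. These 4 pairs lay in the first 3% of the chromosome.

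The middle of chromosome 4 was the emptiest stretch of the set. No pair lay in the 37.8 Mb between 73522452 to 73522731 and 111288126 to 111288521. Beyond it, 7 pairs lay within 2.04 Mb from 171.8 to 173.8 Mb. In the first of these, at 171809464 to 171809757, the replicate 2 peak had the highest pileup of that list among the members, 234 at 43.4-fold, and the replicate 1 peak had a pileup of 24.5 at 5.10-fold. In the fourth, at 172448334 to 172448616, the order was the other way, with the highest replicate 1 pileup of the members, 363.4 at only 1.65-fold, and a replicate 2 pileup of 66 at 20.1-fold. In the sixth, at 173058746 to 173059127, replicate 1 reached 10.1-fold and replicate 2 had 3.64-fold. The sixth was named outside the rules for naming pairs. Over the 7 pairs, replicate 1 enrichment spanned 1.65-fold to 10.1-fold and replicate 2 enrichment 3.64-fold to 43.4-fold. The most enriched replicate 2 member of the set, also picked out after its values were seen, stood opposite 195445849 to 195446121, with 63.2-fold against 3.18-fold in replicate 1. The farthest summits of chromosome 4 were 285 bp apart at 131434260 to 131434745, and its last pair was at 231341085 to 231341362.

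On chromosome 8, 53.8% of the pairs lay in groups of 3 or more. One of these, a group of 3 from 43.2 to 44.1 Mb, counts 2 summits of a single replicate 1 interval as separate pairs. One group held 8 pairs with summits within 87.4 kb, between 48168130 and 48255832. In replicate 1 they spanned 1.62-fold to 4.12-fold with a median of 2.65, and their replicate 2 partners spanned 3.84-fold to 17.0-fold with a median of 5.17. Their median pileup was 59.5 in replicate 1, above the chromosome's median of 21.5, and 20 in replicate 2, below its median of 25.5. The last of the 8, at 48255386 to 48255832, had the lowest smaller value of the chromosome, 1.62-fold against 3.84-fold in replicate 2, with pileups of 102.5 and 11.

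A second group on chromosome 8 held 7 pairs within 180.3 kb near 9.45 Mb. It had a median of 3.19-fold in replicate 1 and 11.1-fold in replicate 2, with median pileups of 24.5 and 46. Its medians of fold enrichment were above those of the first group in both lists. The highest smaller value of the chromosome was 5.10-fold, at 105974743 to 105975008, with 5.84-fold in replicate 2. The next, at 149503842 to 149504737, had 4.58-fold and 8.15-fold and the longest member interval, 896 bp. The tallest replicate 1 peak, at 14844185 to 14844469, had a pileup of 197.9 at 2.52-fold, and the tallest replicate 2 peak, opposite 23501790 to 23502055, had 109 at 25.3-fold. The largest empty stretch was 21.7 Mb, between 122702636 to 122703213 and 144440319 to 144440594. The summits were 3 bp apart at 161900322 to 161900740 and 291 bp apart at 144454069 to 144454343. The first and last pairs were at 3683457 to 3683806 and 171747516 to 171747828.

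On chromosome 9, the pairs gathered toward the right end. The largest group of the set, 9 pairs, lay within 2.36 Mb from 144.2 to 146.6 Mb, and groups of 7 and 4 pairs lay from 136.6 to 138.5 Mb and from 139.8 to 140.7 Mb. The group of 9 had a median of 4.07-fold in replicate 1 (2.74 to 6.11) and 8.31-fold in replicate 2 (4.32 to 25.9), and the group of 7 had 5.18-fold and 8.33-fold. Both pairs with the highest smaller values lay in this stretch. The one at 140110248 to 140110520 had 7.91-fold and 20.3-fold, and the one at 137597519 to 137597852 had 7.56-fold and 14.1-fold. The last pair, at 146581483 to 146581796, stood at 95.1% of the span, with lone peaks beyond it, and the first, at 8662762 to 8663058, stood at 5.62%, ahead of the first lone peak at 11.9%.

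The pair with the lowest smaller value of the whole set was on chromosome 9, at 101894218 to 101894473. Its replicate 2 peak had the highest pileup of that list on the chromosome, 190, but only 1.49-fold enrichment, with an implied background of 127.2. The replicate 1 peak had a pileup of 25.4 at 3.30-fold. This was 1 of 2 replicate 2 members under 3-fold. The tallest replicate 1 peak, at 140686118 to 140686400, had a pileup of 161.1 at 4.77-fold. The largest empty stretch was 20.4 Mb, from the pair at 14637218 to 14637541 to the pair at 35047657 to 35047935, and the latter had 3.85-fold in replicate 1 and 39.6-fold in replicate 2. The smallest summit distance, 3 bp, was at 144222108 to 144222440, and the largest, 291 bp, at 146488058 to 146488328.

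Chromosome 10 was the fullest of the 5 and the only one with 0 empty windows of 10 Mb, against 2 to 9 on the others. Its largest empty stretch was 13.97 Mb, between 34506998 to 34507267 and 48474650 to 48475043. The pair at 106589351 to 106589725 had the highest smaller value of all 269 pairs, 9.01-fold in replicate 1 and 9.58-fold in replicate 2, and its summits were 249 bp apart. The pair at 59317649 to 59317962 had 8.62-fold and 34.6-fold with summits 55 bp apart. The first pair lay at 9632 to 10028, with 6.69-fold and 6.93-fold, and the tallest replicate 1 peak at 51735 to 52230, with a pileup of 359.0 at 3.24-fold. The last pair lay at 148580599 to 148580854, so that chromosome 10 was occupied to within 1% of both ends of its span.

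On the right side of chromosome 10, a group of 6 pairs lay from 111.7 to 113.2 Mb. Its last pair, at 113170182 to 113170637, picked out after its values were seen, was tall in both lists, with pileups of 266.2 and 203. Its enrichment was 2.54-fold in replicate 1 and 54.4-fold in replicate 2. The tallest replicate 2 peak of the chromosome stood opposite 146131904 to 146132270, with a pileup of 220 at 49.4-fold, and replicate 1 had 118.2 at 4.11-fold there. The lowest smaller value was at 138506529 to 138506817, with 1.98-fold and 3.94-fold. One pair, at 7044243 to 7044702, had both summits on the same base, the only such pair of the 269. The farthest summits were 291 bp apart at 115714856 to 115715116.

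Some replicate 1 intervals carried more than 1 summit. There were 6 such intervals among the members, 2 each on chromosomes 8 and 9 and 1 each on chromosomes 4 and 10, and 0 in replicate 2. They held 12 of the 272 members of replicate 1. On the other 5 chromosomes, 89 of the 1278 partnered peaks of replicate 1 shared an interval, a larger share, and 0 of replicate 2 did. The closest successive pairs of the set came from the 6 intervals. They were 148 bp apart at 141699949 to 141700504 on chromosome 9, 339 bp apart at 137157211 to 137157737 on chromosome 10 and 379 bp apart at 44129433 to 44130027 on chromosome 8. On chromosome 10 the summits of this interval had 3.002-fold and 3.93-fold enrichment in replicate 1, and their replicate 2 partners 7.48-fold and 21.98-fold. In each list, 3 members were in no mutually nearest pair. They lay on chromosomes 4, 8 and 9. Those of replicate 1 were themselves summits of intervals of this kind. Those of replicate 2 overlapped the same intervals on chromosomes 4 and 9 and lay next to one on chromosome 8.

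No relation of enrichment between the replicates was seen over these chromosomes as a set. Spearman's rho of fold enrichment across the 269 pairs was 0.03 and Pearson's r was −0.003. By chromosome, rho was −0.15 on chromosome 3 (67 pairs), −0.13 on chromosome 4 (51), −0.12 and −0.01 on chromosomes 8 and 9 (39 and 47), and 0.33 on chromosome 10 (65). On chromosome 10, the rho was 0.39 for −log10 q, 0.20 for length and 0.09 for pileup, and the r of fold enrichment was 0.13. These are descriptions over pairs of the same 2 libraries. Replicate 2 had the higher fold enrichment in 233 of 269 pairs, by values that were not put on a common scale, and in 37 of 39 on chromosome 8. Both values reached 5-fold in 54 pairs, of which 18, 14, 12 and 9 were on chromosomes 10, 3, 4 and 9, and 1 was on chromosome 8. Both reached 10-fold in 0 pairs. Among the upper 10% of pairs in each list, 27 apiece, 4 were the same pairs.

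The summits of a pair lay a median of 135 bp apart (quartiles 69 and 213 bp), from 125 bp on chromosome 4 to 144 bp on chromosome 8. Within 50 bp were 49 of the 269 pairs, 15 of 51 on chromosome 4 and 4 of 39 on chromosome 8. The replicate 2 summit lay to the right in 127 pairs and to the left in 141. On chromosome 3 it lay to the left in 42 of 67 pairs and on chromosome 10 to the right in 37 of 65. The intervals overlapped in 258 pairs, with a median of 69.0% of the shorter interval covered, and did not in 11, of which 4 were on chromosome 10.

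**Figure D5:**
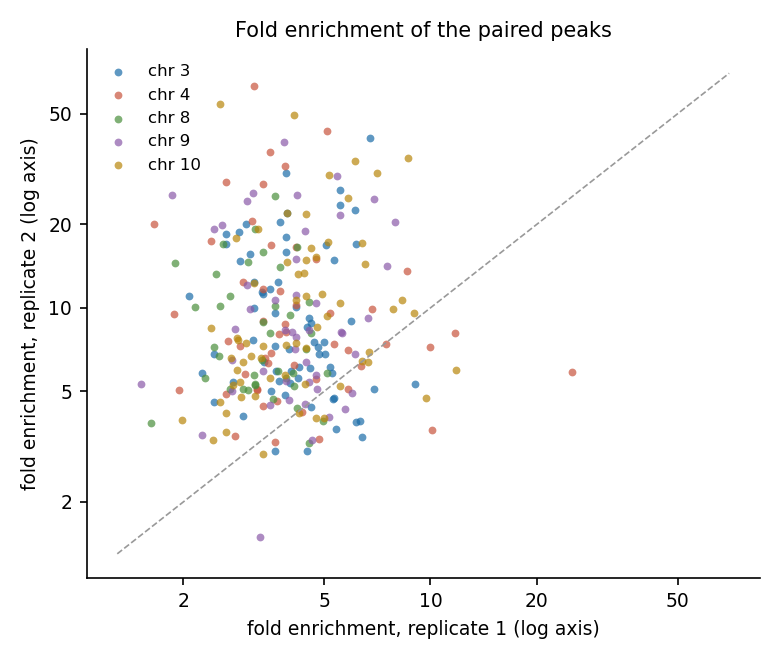
Fold enrichment in replicate 2 (vertical log axis) against that in replicate 1 (horizontal log axis) for the 269 pairs, coloured by chromosome, with a dashed line where both are equal. Of the pairs, 233 lie above the line, and rho over all of them is 0.03.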

How the data were processed

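Chromatin immunoprecipitation sequencing of 2 anti-ZmbZIP22 and 2 IgG libraries was analysed from the peak tables of the anti-ZmbZIP22 libraries. Bowtie2 and MACS2 2.0.10 are named in the submitters' processing notes. For the build, calling threshold, control and later filters: not given in the sources used here. The deposited pileup is a signal value at the summit, the deposited fold enrichment is its ratio to the local background, and columns 7 and 9, whose headings were damaged in the deposited tables, were taken for −log10 p and for −log10 q, the p-value and q-value of a peak. Members, lists and settings were chosen with earlier results of these data known. Counts, medians, quartiles and exact intervals were computed with Python 3.11.15, pandas 2.3.3, NumPy 2.4.6 and SciPy 1.17.1. Pairs were mutually nearest summits, and the pairing was tested on simulated data. With 2 libraries and peaks that are not replicates, no p-value was computed and the depth is unknown. The pairs named on each chromosome were the first and last, those beside the largest gap, the 2 with the highest and the 1 with the lowest smaller fold enrichment, the tallest per list, and those with the closest and farthest summits. To these were added the 3 closest successive pairs and the members nearest the limit. Further pairs were named outside these rules, among them the most enriched of each list, picked out after their values were seen. Parts that need a genome of the build were not run.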

Additional observations from a re-analysis of the deposited data

How the results depend on the processing

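Of 50 recomputed values, 38 moved by less than a set limit. This was the SD between the lists, 4.27 percentage points for the outer share, 1.5 times for counts or 0.1 for rho. For spacing, the SD was only 5.7e-06 Mb, because the rule pairs the lists nearly one to one. A setting that dropped peaks was therefore bound to pass it, and passing it says little. For length, pileup and fold enrichment, the SD was between lists not put on a common scale, so staying within it says little. For fold enrichment it was 2.59, which let the replicate 1 median go from 3.90 to 4.81 with only the upper 50% of members by −log10 q. The 38 also include the values of either list alone, taken up below. With only the upper 50% of members by −log10 q, the count was 136 by construction and the median spacing was 2.63 Mb. The share in the outer 25% at either end was then 59.2%. This passed its limit but lay inside the interval of 47.9% to 60.1% for all members. The median pileup with this setting was 31.97 in replicate 1 and 55 in replicate 2, and the replicate 2 medians were 454 bp in length and 14.3 in fold enrichment. The median spacing was 1.64 Mb with summits within 200 bp, 1.45 Mb with partners by interval overlap and 1.43 Mb with each interval once, since fewer peaks remained. The outer 10% at either end held 31.99%. This was set against 54.0% for the outer 25%, a larger part of the span, so it was bound to count as moved. Counting pairs less than 1 Mb apart once, a setting chosen after seeing the data, left 161. Chromosome 4 had the lowest density in every setting except the upper 50%, where chromosome 8 had 0.74 per 10 Mb in replicate 1 and chromosome 4 had 0.92, and the count of groups. The rule pairs the lists nearly one to one, so agreement of either list alone in count, outer share and spacing says nothing of stability. The rho of fold enrichment over pairs stayed between 0.03 and 0.06, and with −log10 q or pileup in its place it was 0.05 and −0.01. No paired analysis was possible because no IgG values were analysed here. The depth behind each peak is unknown, so differences of a few peaks between chromosomes were not resolved beyond counting error.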
